A study of Mus musculus with 4 samples.

Results

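The imprinted growth genes described here, 10 in number, were followed across a lung study of elastase and testosterone loss: H19, Igf2, Dlk1, Meg3, Peg3, Mest, Cdkn1c, Grb10, Plagl1 and Igf2r. They are 10 of the 26705 named genes on the array, and they were read from every non-control probe that carries one of these gene names, 26 of 56605 probes. The genes were chosen by the signals of these same arrays, above all the high H19 signal on 1 of them, so the values below are a description and no test was made of them. Lung RNA of C57BL/6J mice was hybridised to 4 Agilent 1-colour arrays, and each array took RNA pooled from 5 mice. The sham/PBS group had sham surgery and inhaled PBS, and the sham/PPE group had sham surgery and PPE. The ORX/PBS and ORX/PPE groups had ORX in place of the sham operation and received the same agents. ORX was read as orchiectomy and PPE as porcine pancreatic elastase, from the testosterone deficiency and the elastase-induced emphysema in the study's title. All groups were labelled 3 weeks, and ages are not given in the sources used here. Pooling leaves 1 value per group, with no spread between mice, so differences are described by size against a 2-fold threshold. With 4 arrays the precision is limited by their number. Lists of 4 values below keep the order of the groups just given.

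Imprinted genes are transcribed mainly from the copy inherited from one parent. Paternally expressed genes such as Igf2, Dlk1, Peg3, Mest and Plagl1 have been linked to fetal growth, while maternally expressed H19, Cdkn1c, Grb10 and Igf2r are known to restrain it, and many of them fall after birth in most organs. H19 and Igf2 share one control region on mouse chromosome 7, as Dlk1 and Meg3 do on chromosome 12, and in each pair the non-coding RNA comes from the maternal copy and the growth factor or ligand from the paternal copy. A network of imprinted genes that are expressed together has been described in mouse tissues, with Plagl1 among its regulators.

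The results turn on the non-coding RNAs H19 and Meg3, whose probes did not all give the same picture, so the probes compared below are shown 5′ to 3′ as deposited, with no letters marked. Both H19 probes are on the minus strand of build mm9, the brighter at chr7:149761492-149761551 and the dimmer at chr7:149762173-149762232. The array annotation places the H19 locus at chr7:149761435-149764019, 2585 bases long, so the brighter probe starts 57 bases from its 3′ end and the dimmer 738 bases from it. Both Meg3 probes shown are on the plus strand, the brightest of 5 at chr12:110783470-110783529 and a dimmer one, the third in brightness, at chr12:110799833-110799892.
H19, brighter probe: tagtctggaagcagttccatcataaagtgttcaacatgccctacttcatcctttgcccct
H19, dimmer probe: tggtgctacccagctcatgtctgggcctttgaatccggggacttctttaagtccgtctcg
Meg3, brightest probe: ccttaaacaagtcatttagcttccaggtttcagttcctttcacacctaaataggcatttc
Meg3, dimmer probe: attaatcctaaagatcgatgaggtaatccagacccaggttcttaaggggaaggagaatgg
H19 is also the primary transcript of miR-675, whose gene lies within H19 in RefSeq (GRCm38.p6). Its mature arms are given from RefSeq, at chr7:142577112-142577133 and chr7:142577078-142577099 on the minus strand, with the seed (bases 2 to 8) in capitals, since the H19 probes cannot tell the RNA that is cut to miR-675 from the RNA that is not. The mature arms were not measured here.
miR-675-5p: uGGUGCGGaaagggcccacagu
miR-675-3p: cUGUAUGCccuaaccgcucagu

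Signals were set against the 75th percentile of each array, which was 852.9 and 829.8 in sham mice given PBS and PPE, and 999.2 and 860.9 in ORX mice given PBS and PPE, and they are given below as a percent of it. Between 19840 and 20595 genes were well above background on an array, and no spot was saturated. All 14 lung cell markers, among them Sftpc, Ager and Cldn5, were above background on all 4 arrays. One of them, the macrophage receptor Marco, passed 2-fold with PPE, and their summed signal was 1652 to 1895 times the percentile. Differences are on the log2 scale, where 1 is 2-fold. Probes spotted 10 times on each array gave an SD of 0.119 to 0.129 for a difference at signals of 60 to 300, which covers spots and not mice. By its brightest probe each of the 10 genes was above background on every array, and of the 26 probes 20 were, 4 were on some arrays and 2 on none.

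**Figure D1:**
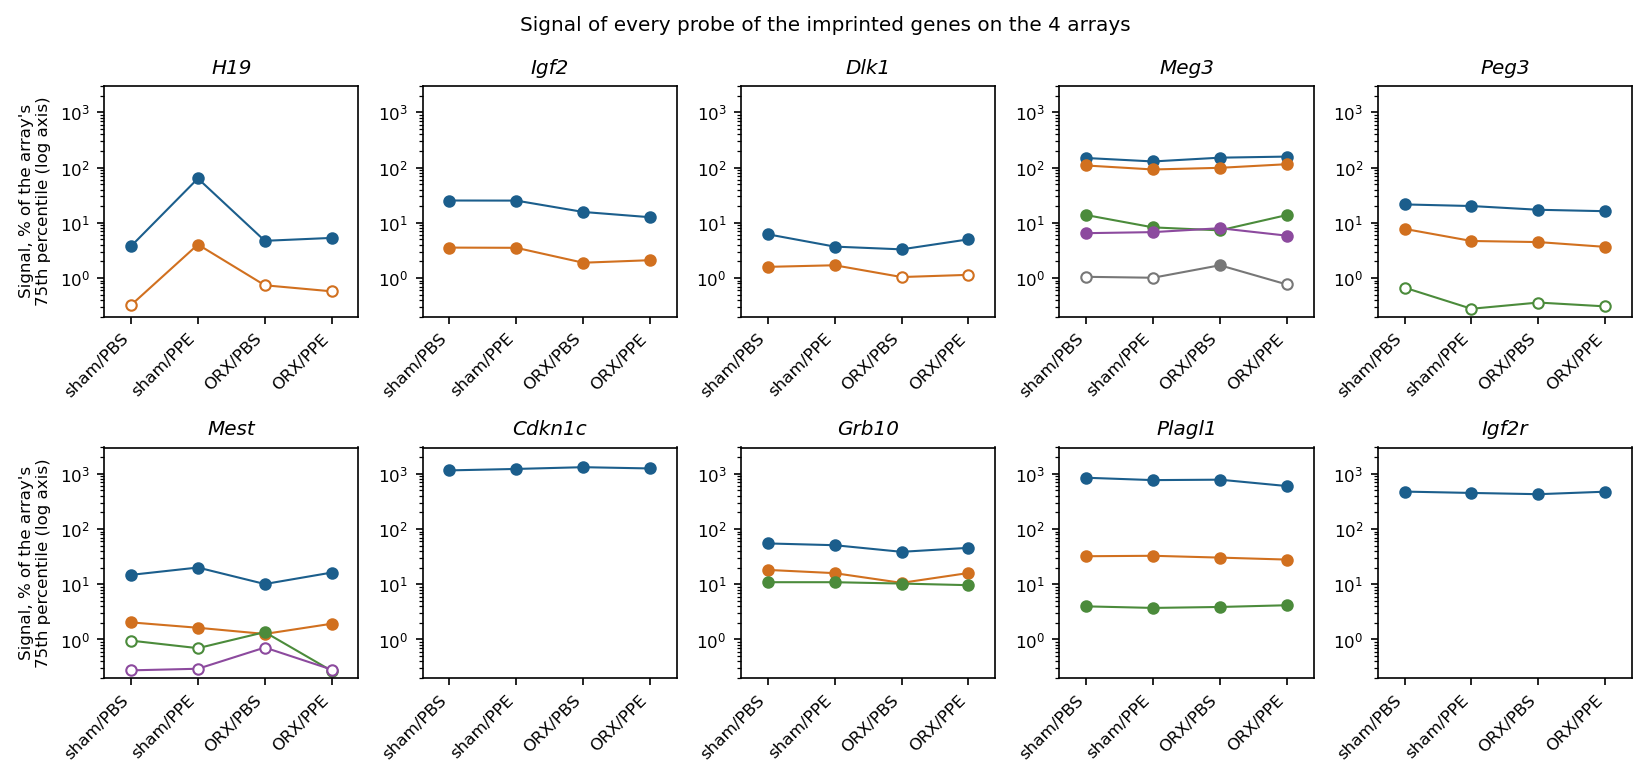
Signal of each probe of the 10 genes, as a percent of the array's 75th percentile (log axis), on the 4 arrays. Each colour is 1 probe, filled points are well above background and open points are not; H19 stands at 63.4% on sham/PPE and at 3.76 to 5.32% elsewhere by its brighter probe, while the brightest probe of each other gene spans at most 2.02-fold over the arrays.

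H19, the maternally expressed non-coding RNA, was high on the array of elastase-treated sham mice and low on the other 3. The signal of the brighter probe was 3.76% and 63.4% of the percentile in sham mice given PBS and PPE, and 4.71% and 5.32% in ORX mice given PBS and PPE. In raw units these were signals of 32.1, 526, 47 and 45.8. Leaving out sham/PPE, the arrays lay within 0.50 of one another, and the sham/PPE array stood 3.80 above their mean. PPE against PBS gave a difference of 4.07 (16.8-fold) after sham surgery and 0.18 (1.13-fold) after ORX. ORX against sham gave 0.32 under PBS and -3.58 under PPE (11.9-fold lower). The large values in both comparisons come from the same sham/PPE array, which they share, and are not separate observations.

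The dimmer H19 probe gave the same order of high and low for sham/PPE against the rest. Its signals were 2.75 and 33.5 in sham mice given PBS and PPE, and 7.37 and 4.93 in ORX mice given PBS and PPE, and it was well above background only on sham/PPE. As a bound, taken against its own dim signal or the detection limit of that array, whichever was higher, it was at least 3.32-fold higher in sham/PPE than in sham/PBS. By the same rule it was at least 3.21-fold lower in ORX/PPE than in sham/PPE. H19 was the fourth highest of 19361 genes measured on both arrays for PPE in sham mice, and the fourth lowest of 19325 for ORX under PPE. Genes with a bound were not ranked. Of those named below, Ucp1 was past H19 as a bound in both comparisons, at 7.69 and -7.64. Prm1 was past it for ORX under PPE, at -6.79. With normexp background correction, which pulls dim signals together, the differences of the brighter probe were 2.74, 0.21, 0.00 and -2.54 in the order above. How many of the 5 mice carry the H19 signal of sham/PPE cannot be told from a pool, and in whole lung fewer cells of a type and less RNA per cell cannot be told apart either.

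Among genes above background on all 4 arrays, those whose levels were most like those of H19 were not imprinted growth genes. Genes that were not, such as Prm1, Ucp1 and Smcp, were left out of this comparison. Likeness was the mean absolute difference of log2 levels centred on each gene's mean, over 4 arrays, and its median was 1.42 over 19046 genes. The nearest 8 were Tnp1 at 0.18, Prm2 at 0.26, Cidea at 0.54, Nppb at 0.57, Comp at 0.61, H1f7 at 0.64, Ahsg at 0.66 and Nppa at 0.69. Tnp1 and Prm2 encode transition protein and protamine that pack sperm DNA, and H1f7 a histone of the testis. Nppa and Nppb encode natriuretic peptides of the heart, Cidea a lipid droplet protein of brown fat, Ahsg the liver protein fetuin-A and Comp a matrix protein of cartilage and tendon. Tnp1 gave signals of 3.5, 40.4, 4.26 and 4.27% of the percentile in the order of the groups, and Nppb 6.04, 158, 6.38 and 3.25%. Among the other 9 imprinted genes the nearest to H19 were Mest at 1.21 and Igf2 at 1.22, places 409 and 454 of the 19046, and the farthest was Dlk1 at 1.55. Levels were not scaled, so a gene that hardly varies lies near the median, as Cdkn1c did at 1.43 with a span of 1.14-fold. Igf2 differed by -0.01 between the sham arrays, so these places do not show that a gene followed H19.

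**Figure D2:**
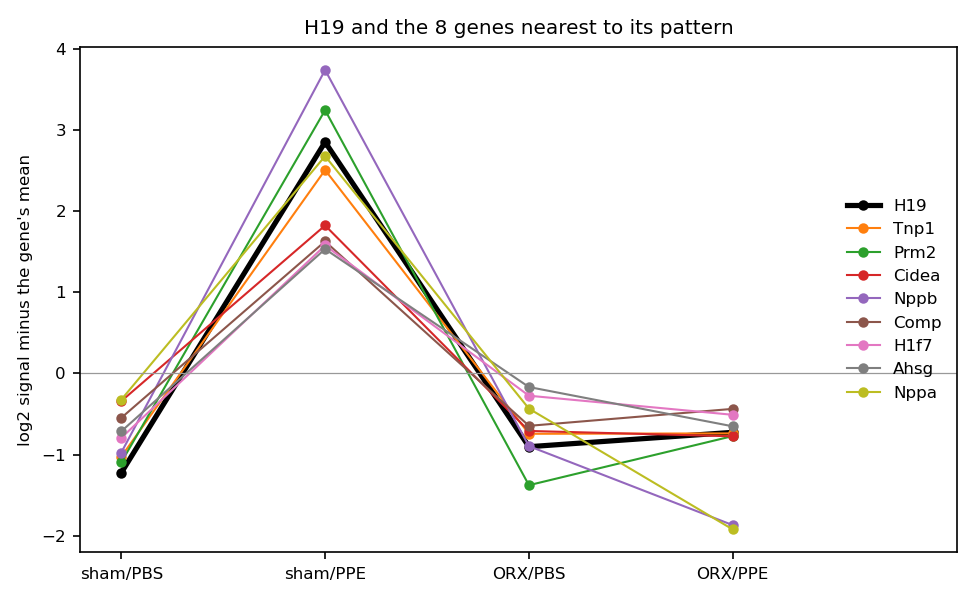
Log2 signal of H19 and of the 8 genes nearest to its pattern, among genes above background on all 4 arrays, each minus the gene's own mean. H19 is 2.85 above its mean on sham/PPE and between 0.73 and 1.22 below it on the others, and the 8 genes are highest on the same array.

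Because these neighbours are genes of other tissues, whole marker lists were read beside H19. The lists hold 6 of the 8 genes just named (all but Comp and H1f7), which were picked for their likeness to H19, so the counts are a description. Over the markers above background on all 4 arrays, 4 of 7 of spermatids, 4 of 9 of liver, 4 of 16 of cardiac muscle and 3 of 12 of fat were at least 2-fold higher with PPE in sham mice. Of all 19047 genes above background on all 4 arrays, 164 were. With normexp the counts of these markers fell to 2 of spermatids, 3 of liver, 3 of cardiac muscle and 2 of fat. The spermatid markers Akap4, Smcp, Gapdhs, Ldhc and Hils1 were above background on sham/PPE alone and had bounds past 2-fold there. They were compared only because sham/PPE was above background, so their bounds could not point lower. Nothing is read from these bounds. Prm1, the other main protamine, was at 2.39, 139, 1.6 and 1.09% of the percentile on the 4 arrays, and was not well above background on ORX/PPE. With normexp Prm1, Prm2 and Tnp1 were at 3.84, 2.97 and 2.11 and Smcp at 1.38 as a bound, while no other spermatid marker passed 2-fold. Ucp1, which uncouples respiration in brown fat, was above background on sham/PPE at 251% of the percentile and on ORX/PBS at 1.45%. It was not on sham/PBS or ORX/PPE. On sham/PPE it was at least 207-fold higher than on sham/PBS, and with normexp the bound was 4.83. Of 13 fat markers measured with PPE in sham mice 10 were above 0. The other 3, Lep, Lipe and Ppargc1a, were at -0.05 to -0.08, and Elovl3 was above background on no array. The summed signal of the 16 cardiac markers was 83.7, 171, 68.8 and 35.9 times the percentile in the order of the groups, and that of the 14 fat markers 20.4, 38.9, 25.3 and 20.5 times. Nppa, picked for its likeness to H19, had the largest cardiac rise between the sham arrays, from 603 to 4825% of the percentile. In fat Fabp4 had the largest, from 756 to 1687%. Of the 16 cardiac markers 12 were above 0 with PPE in sham mice. The other 4, Myh7, Myl3, Actc1 and Ryr2, were at -0.06 to -0.39. Summed signals of spermatid markers, 22, 21.3, 19.5 and 20.7 times, are made up mostly of Odf2 and Prm3, which are also bright on the PBS arrays. Of the 14 spermatid markers 8, 13, 8 and 7 were above background on the 4 arrays, and Odf1 was on none. The summed signal of the 14 liver markers was 62.1, 62.6, 58.6 and 57.9 times, mostly that of Trf, and Ttr was above background on no array.

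H19 is also known from embryonic and regenerating muscle and from fibroblasts. The summed signals of these lists were highest on sham/PPE, and so was that of the lung cell markers. The latter was 1802, 1895, 1652 and 1796 times the percentile in the order of the groups. In each muscle list 1 gene, Myh8 or Myl1, made up the largest part of the sum. No myoblast marker of 7 measured passed 2-fold with PPE in sham mice, their median was -0.23, and Myf5, Myog, Myf6, Chrna1 and Chrnd were above background on no array. The summed signal of all 13 was 2.16, 2.88, 1.93 and 1.39 times the percentile in the order of the groups. The brightest of them, Myh8, was at 117, 206, 93.1 and 60% and the next, Des, at 68.6, 58.3, 76.1 and 54.6%. No skeletal muscle marker of 15 measured (median 0.34) and no fibroblast marker of 13 (median 0.25) passed 2-fold there. Their summed signals were 5.23, 7.55, 4.68 and 3.33 times the percentile for skeletal muscle and 314, 344, 298 and 317 times for fibroblasts. Under ORX against sham with PPE, which shares the sham/PPE array, 4 of 7 spermatid, 12 of 16 cardiac, 5 of 12 fat and 4 of 9 liver markers above background on all 4 arrays were at least 2-fold lower. So were 2 of 13 skeletal muscle markers, Myl1 at -2.23 and Ckm at -1.74, 1 of 5 myoblast markers, Myh8 at -1.78, and 0 of 13 fibroblast markers. Of all 19047 genes above background on all 4 arrays, 201 were at least 2-fold lower. With normexp the counts were 2 for spermatids, 10 for cardiac muscle, 4 for fat, 4 for liver, 1 for skeletal muscle and 1 for myoblasts. The ORX/PPE array was also low for some lists. With PPE in ORX mice 4 of 16 cardiac, 3 of 9 liver and 2 of 13 skeletal muscle markers were at least 2-fold lower. Of the 19047 genes, 46 were. With normexp 3 cardiac markers remained. In the other lists 0 were lower. Ckm was at 0.26 with PPE in sham and -1.55 in ORX mice. The cardiac median in ORX mice was -0.93, where H19 was at 0.18. The part of these tissues in the H19 signal was not tested.

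**Figure D3:**
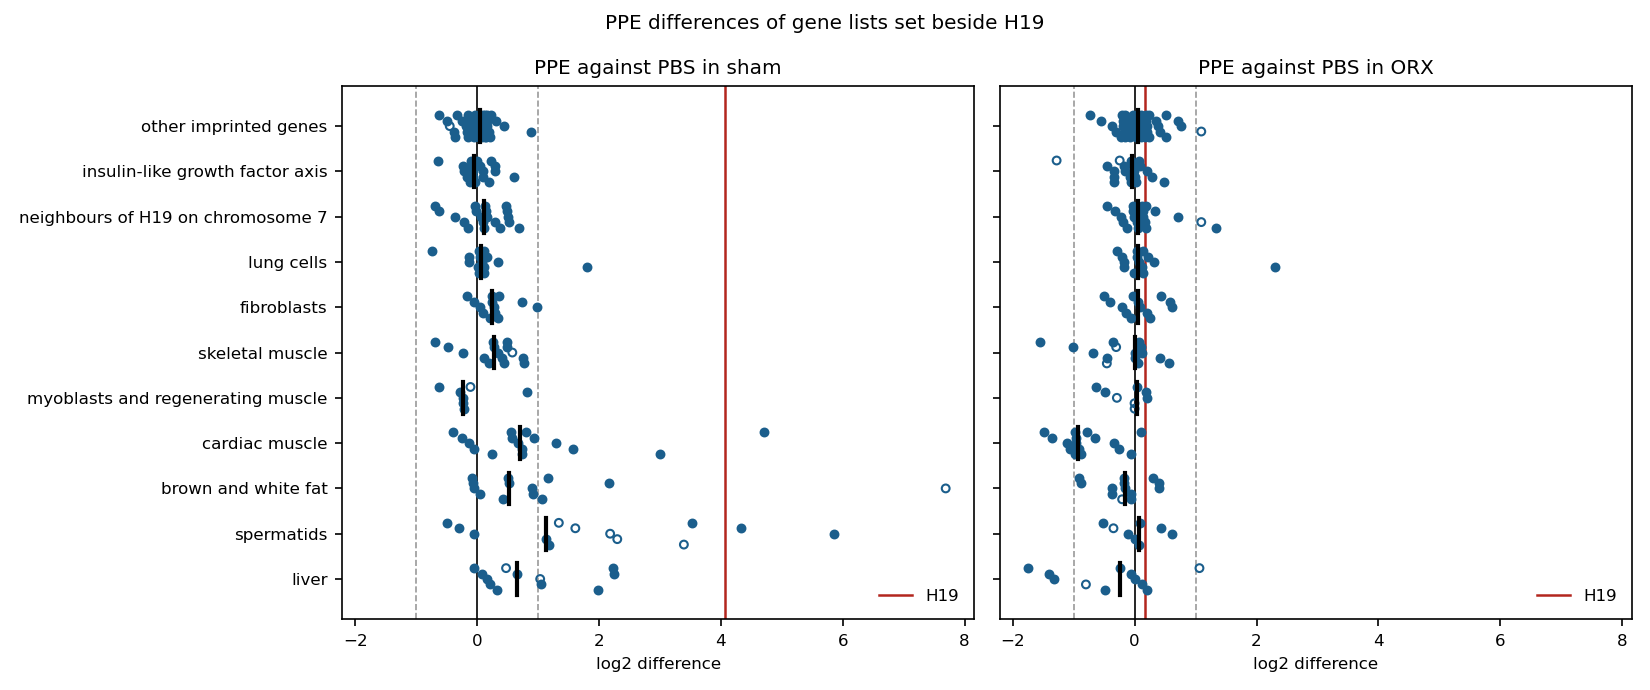
Log2 differences of PPE against PBS in sham mice (left) and in ORX mice (right) for each measured gene of 11 lists. Filled points were measured on both arrays, open points are bounds, black bars are medians over the list's genes above background on all 4 arrays, the same genes on both sides, and the red line is H19 (4.07 left, 0.18 right). The bar of the cardiac list, with 16 genes, is at 0.70 on the left and -0.93 on the right, and that of the other imprinted genes, with 42, at 0.05 on both sides.

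Igf2, the fetal growth factor next to H19, did not move with H19 on the sham/PPE array. Its locus lies 72.6 kb from that of H19, and its brighter probe is at chr7:149837115-149837174 (mm9, minus strand). Signals were 25.3% and 25.2% of the percentile in sham mice given PBS and PPE, and 15.7% and 12.6% in ORX mice given PBS and PPE. The arrays of sham mice were thus alike and both above the arrays of ORX mice. PPE against PBS differed by -0.01 in sham and -0.32 in ORX mice. ORX against sham differed by -0.69 under PBS and -1.003 under PPE, the latter just past 2-fold.

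The second Igf2 probe, at chr7:149839661-149839720, gave the same split by surgery. Its signals were 3.55, 3.52, 1.89 and 2.1% of the percentile in the order of the groups. ORX against sham differed by -0.91 under PBS and -0.74 under PPE by this probe. With normexp correction the brighter probe gave -0.58 and -0.78, so the call under PPE did not hold there, nor for the mean of both probes at -0.87. The lower of the sham arrays was above the higher of the ORX arrays by 0.68 for one probe and 0.74 for the other. No interval goes with this gap, since each surgery had 2 arrays that also differ in agent.

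On chromosome 12, Dlk1 and Meg3 did not follow H19. Dlk1 encodes a ligand-like membrane protein of preadipocytes and fetal tissues, and its brighter probe is at chr12:110698428-110698487 (mm9, plus strand). Signals were 6.19% and 3.7% of the percentile in sham mice given PBS and PPE, and 3.3% and 5.01% in ORX mice given PBS and PPE. The values of sham/PBS and ORX/PPE were the higher ones, so PPE went with a lower signal in sham mice (-0.74) and a higher one in ORX mice (0.60). ORX against sham differed by -0.91 under PBS and 0.44 under PPE. With normexp these 4 values became -0.18, 0.36, -0.48 and 0.05. The dimmer Dlk1 probe was above background on both sham arrays alone, at 1.59% and 1.7%, and differed by 0.10 between them.

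Meg3, the maternal non-coding RNA of the Dlk1 locus, lies 77.7 kb from Dlk1 and was read by 5 probes. Its brightest probe gave 149, 129, 151 and 158% of the percentile on the 4 arrays. The lowest and the highest differ by less than 0.30, and the PPE difference was -0.21 after sham surgery and 0.07 after ORX. The second probe, at chr12:110809678-110809737, gave 109, 92.3, 98.9 and 115%. Both had their lowest value on sham/PPE, the array on which H19 was highest.

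The third Meg3 probe printed above had a different pattern. Its signals were 13.8% and 8.25% in sham mice given PBS and PPE, and 7.29% and 13.8% in ORX mice given PBS and PPE. Sham/PBS and ORX/PPE were the higher pair, as for the brighter Dlk1 probe. PPE differed by -0.74 in sham and 0.92 in ORX mice. The fourth probe, at chr12:110782745-110782804, gave 6.48, 6.77, 7.97 and 5.84%, with PPE differences of 0.06 and -0.45. The fifth was above background on ORX/PBS alone. No Meg3 probe passed 2-fold in a comparison, and the probes were designed on 3 transcript records, so they cannot be read as repeats of 1 measurement.

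Cdkn1c and Igf2r, which are known to restrain growth, varied least over the 4 arrays among the 10 genes. Cdkn1c, a cyclin-dependent kinase inhibitor 792 kb from Igf2, was read by 1 probe at chr7:150644297-150644356. Its signals were 1155% and 1227% of the percentile in sham mice given PBS and PPE, and 1320% and 1252% in ORX mice given PBS and PPE. Its differences lay between -0.08 and 0.19 in the 4 comparisons. Igf2r, the receptor that takes up IGF2 for breakdown in lysosomes, gave 477, 451, 428 and 475% from 1 probe on chromosome 17 and differed by -0.16 to 0.15. These are narrow ranges beside the central 95% of all genes for PPE in sham mice, -0.63 to 0.71.

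Grb10, an adaptor that dampens insulin and IGF1 receptor signalling, had its lower signals under ORX by its brightest probe, at chr11:11833165-11833224. Signals were 54.9% and 51% in sham mice given PBS and PPE, and 38.7% and 45.7% in ORX mice given PBS and PPE. ORX against sham differed by -0.50 under PBS and -0.16 under PPE. A second probe gave 18.2, 15.9, 10.6 and 16%, with -0.78 and 0.01, and another 10.9, 10.9, 10.3 and 9.63%, with -0.09 and -0.18. The ORX/PBS value of the first and second probes was the lowest of the 4, while the remaining one was lowest on ORX/PPE.

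Plagl1, the zinc finger factor named as a regulator of the network, was lowest on ORX/PPE. Its brightest probe, at chr10:12850832-12850891, gave 850% and 770% in sham mice given PBS and PPE, and 784% and 601% in ORX mice given PBS and PPE. PPE differed by -0.14 in sham and -0.38 in ORX mice. A second probe gave 32.2, 32.8, 30.4 and 28% and the dimmest 3.98, 3.73, 3.88 and 4.17%. The dimmest had its highest value where the brightest had its lowest. These other probes stayed within 0.24 in the 4 comparisons.

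Peg3 and Mest, paternally expressed genes, each had one probe above 10% of the percentile. Peg3 encodes a zinc finger protein, and its brighter probe at chr7:6657078-6657137 gave 21.5% and 20.1% in sham mice given PBS and PPE, and 17.2% and 16.2% in ORX mice given PBS and PPE. Both ORX arrays were below both sham arrays, with differences of -0.32 under PBS and -0.31 under PPE. The second Peg3 probe gave 7.75, 4.68, 4.47 and 3.66% with -0.79 and -0.35, and the third was above background on no array. Mest encodes a hydrolase-like protein that marks growing adipose and mesodermal tissue.

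Mest had its higher signal with PPE in both surgeries by its brightest probe, at chr6:30697385-30697444. Signals were 14.8% and 20.1% in sham mice given PBS and PPE, and 10.1% and 16.3% in ORX mice given PBS and PPE. The PPE difference was 0.45 after sham surgery and 0.70 after ORX. These were the highest values of the 9 genes other than H19 in both comparisons, and neither passed 2-fold. ORX differed by -0.55 under PBS and -0.30 under PPE. The second probe gave 2.04, 1.63, 1.26 and 1.93%, with PPE at -0.33 in sham and 0.62 in ORX mice, so the sign in sham mice depended on the probe. Averaging all 4 Mest probes, of which 1 was above background on ORX/PBS only and 1 nowhere, turned the difference in ORX mice to -0.59 and that in sham mice to -0.06.

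Set side by side, H19 differed from the other 9 genes where the sham/PPE array was compared. With PPE in sham mice 1 of the 10 passed 2-fold upward, H19, and 0 downward, where 1.28% of all genes measured passed upward and 0.438% downward, 1.71% in all. The other 9 lay between -0.74 and 0.45 with a median of -0.09, 7 of them below 0, and H19 was 4.17 above that median. The median of all genes was 0.02. With PPE in ORX mice 0 of 10 passed, where 0.696% of 20837 genes passed upward and 0.374% downward, 1.07% in all. The other 9 lay between -0.38 and 0.70 with a median of 0.07, and H19 was 0.11 above it.

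For ORX under PBS 0 of 10 passed 2-fold, where 0.575% of 20880 genes passed upward and 1.25% downward, 1.82% in all. The other 9 had a median of -0.32 and a range of -0.91 to 0.19, with 7 below 0, while the median of all genes was -0.01. For ORX under PPE 2 of 10 were at least 2-fold lower, H19 and Igf2, and 0 higher, where 1.43% of all genes were lower and 0.327% higher, 1.76% in all. The other 9 lay between -1.003 and 0.44 with a median of -0.16. The rule that set these genes aside knew the contrasts, so nothing is read from the shares. Across the 4 arrays the highest signal was at least 2-fold the lowest for 2 of the 10 genes, H19 and Igf2, and for 4.18% of the 19047 genes above background on all arrays.

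**Figure D4:**
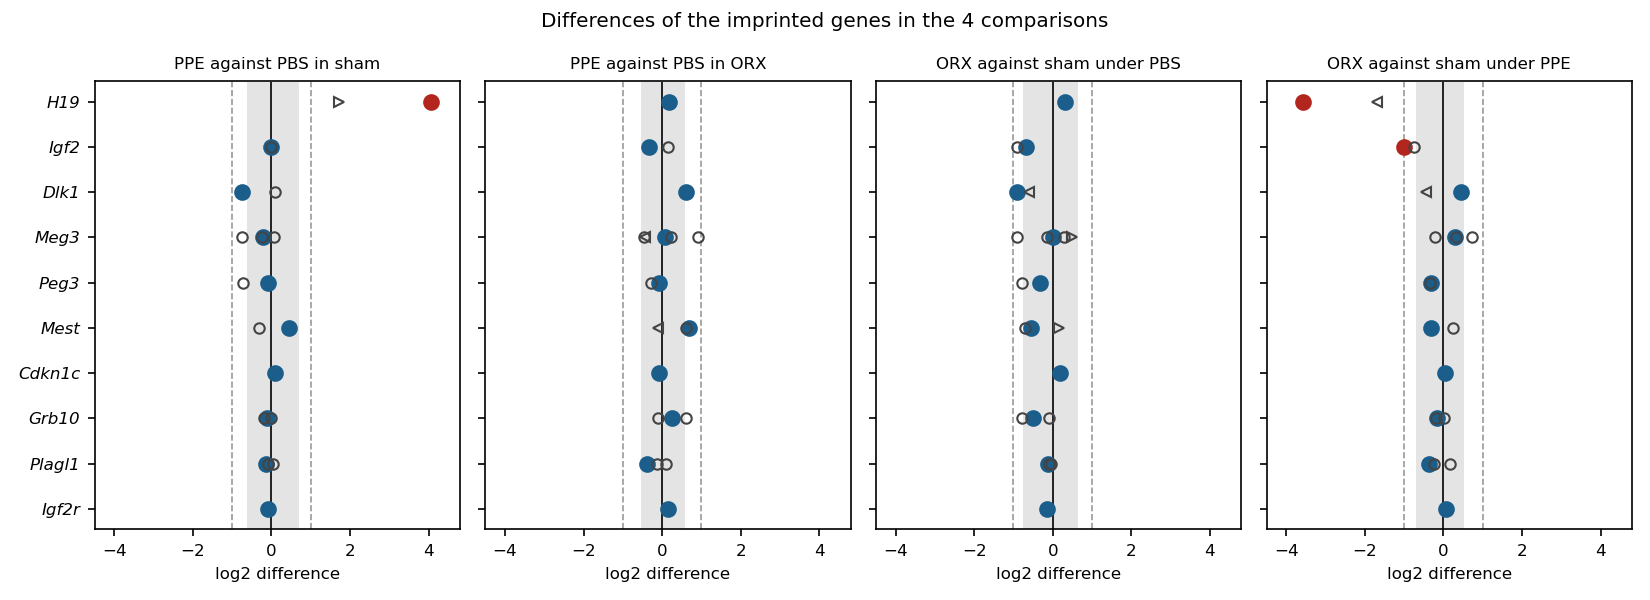
Log2 differences of the 10 genes in the 4 comparisons. Large points are the brightest probe (red past 2-fold, dashed lines), small open points are other probes measured on both arrays, triangles are bounds, and the grey band is the central 95% of all genes; H19 is at 4.07 and -3.58 in the outer panels, Igf2 reaches -1.003 in the last, and the other points of brightest probes lie within 2-fold.

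Splits by surgery or by agent were read from the brightest probes, at any size. Both ORX arrays were below both sham arrays for Igf2, Peg3 and Grb10, with gaps of 0.68, 0.23 and 0.16, as they were for 21.7% of the 19047 genes above background on all arrays. Both were above for Cdkn1c and Meg3, with gaps of 0.03 and 0.02, as for 18.5%. With a gap of at least 1.5-fold only Igf2 remained among the 10, and 0.478% of all genes were as far lower and 0.184% as far higher. With normexp the Igf2 gap was 0.584 and did not reach 1.5-fold. Both PPE arrays were above both PBS arrays for H19 and Mest, with gaps of 0.18 and 0.14, where 14.7% of genes were, and both were below for Plagl1 by 0.03, where 12.7% were. No gap by agent reached 1.5-fold among the 10, where 0.268% of all genes were as far higher and 0.0578% as far lower. The H19 gap is the small difference between ORX/PPE and ORX/PBS, not the large one. With the mean of all probes the splits of Peg3, H19 and Mest were gone, at gaps of -0.03, -0.09 and -0.59. The dimmer H19 probe, the second probe of Grb10 and that of Mest showed no such split, at -0.37, -0.01 and -0.33.

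Where a gene had another probe measured on both arrays, that probe had the sign of the brightest in 7 of 11 cases for PPE in sham, 6 of 10 for PPE in ORX, 8 of 10 for ORX under PBS and 6 of 10 for ORX under PPE. Where a difference below 2-fold is called higher or lower, this gives the order of that probe's values and not a direction of the gene.

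Other imprinted genes did not follow H19 past 2-fold either. Of 44 measured among 49 on the array, 0 passed in sham mice with PPE, with a median of 0.05. Neuronatin, Nnat, a paternally expressed proteolipid, had the largest value at 0.88, and 0.76 in ORX mice, with signals of 45.4, 83.8, 35.6 and 60.2% of the percentile in the order of the groups. It was named after its values were seen. In ORX mice 1 of 44 was at least 2-fold higher, Ins2, as a bound, with a median of 0.05. Under ORX with PBS 1 of 44 was at least 2-fold lower, the organic cation transporter Slc22a3 at -1.19, with a median of -0.09, and under ORX with PPE 0 passed, with a median of -0.04. With normexp neither call held, at 0.41 for Ins2 and -0.89 for Slc22a3.

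Genes next to H19 on chromosome 7, 20 in number, were within 2-fold with PPE in sham mice, with a median of 0.12. Ins2, Th, Ascl2, Kcnq1, Kcnq1ot1, Slc22a18, Phlda2 and Osbpl5 are also among the other imprinted genes, so the 2 lists are not separate observations. With PPE in ORX mice 2 of 20 passed upward, the cation channel Trpm5 at 1.34 and Ins2, and under ORX with PBS 1 passed downward, Trpm5 at -1.09. Under ORX with PPE 0 of 20 passed. Trpm5 signals were 2.51, 3.62, 1.18 and 2.99% of the percentile, close to the limit of detection, and with normexp its difference was 0.52 with PPE in ORX mice and -0.44 with ORX under PBS. The 20 neighbours lay between -0.69 (Tnnt3) and 0.69 (Ctsd) with PPE in sham mice, and these ends were named after their values were seen.

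The partners of IGF2 outside the imprinted genes were read as well. Of the insulin-like growth factor axis 19 or 20 of 22 genes were measured, and 0 of 19 passed 2-fold with PPE in sham mice, with a median of -0.03. Igf1, the postnatal growth factor, was at 93.7, 142, 86.3 and 121% of the percentile on the 4 arrays, with PPE differences of 0.60 and 0.48. Igfbp3, a binding protein that carries IGFs, was at 1211, 778, 1060 and 770%, with PPE differences of -0.64 and -0.46. Both PPE arrays were above both PBS arrays for Igf1, as for 14.7% of 19047 genes, and below them for Igfbp3, as for 12.7%. These 2 genes were named after their values were seen, and nothing is read from the splits. Lin28b, an RNA-binding protein of fetal growth, was the gene of the axis past 2-fold, 1.14 with ORX under PBS and at least 2.43-fold lower with PPE in ORX mice. Its signals were 1.39, 1.48, 3.05 and 0.993% of the percentile, so both calls rest on 1 dim value on ORX/PBS, and with normexp the values were 0.11 and -0.17. Under ORX with PPE 0 of 19 passed, with a median of -0.15, and Igf1r, the receptor, differed by -0.24 there.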

How the data were processed

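Lung RNA pooled from 5 mice per group was labelled with Cy3 and hybridised to 4 one-colour Agilent arrays of design 074809, per the labels and the file headers. Each spot's processed signal, per the file headers, is an intensity on a linear scale, background-subtracted by Agilent Feature Extraction and not normalized between arrays. Its version is 10.7.1.1 per the file headers and 9.5.1.1 per the submitters' processing notes. Mean and background signals, used for normexp, are deposited as intensity too, and detection, saturation and outlier marks are other columns of 0 or 1, per the file headers. The series' value table is deposited as intensity of unstated scale. Its 4 medians are 71.5 and its log2 values correlate at 0.9998 or more with the scanner signals and differ from their quantile normalization by a median of 0.00364, so its direction is settled and genes were not centred.

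Control spots and 31 to 54 outlier spots of 59305 per array were left out, spots of a probe were averaged, and log2 minus the array's 75th percentile over non-control spots was taken. RefSeq (GRCm38.p6) named 32989 of 56605 probes through an accession, 10228 through a symbol and 519 through a synonym; 2051 kept the file's name and 10818 had none. A gene was read from its brightest unsaturated probe; all probes of the 10 genes are given. A comparison took genes well above background on both arrays, or on 1 as a bound, and called them at 2-fold. Probe coordinates are mm9, from the files; exon and UTR annotation in mm9 was not used here. The members, gene lists and settings were chosen with earlier results of these data known. Named genes are all 10 members, up to 4 genes per direction past 2-fold of each list, and the 8 nearest to H19; exceptions are stated. Alternatives were normexp with an offset of 50 (limma 3.58.1, R 4.3.3), quantile normalization, median centring, 2 filters, the mean of probes, the value table and a 1.5-fold threshold. Other steps ran in Python 3.11.15, numpy 2.4.6, pandas 2.3.3 and matplotlib 3.10.9.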

Additional observations from a re-analysis of the deposited data

Results flagged for a closer look

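The PPE differences of Dlk1 had opposite signs in the 2 surgeries, -0.74 in sham and 0.60 in ORX mice, each below 2-fold, and the difference in ORX minus that in sham was 1.34 on the log2 scale. With 1 array per group this difference was not tested. The signals behind it were 52.8, 30.7, 33 and 43.1 in the order of the groups, and the dimmer Dlk1 probe, not above background on the ORX arrays, differed by 0.10 in sham mice, the other sign. The third Meg3 probe, picked out after its values were seen, had a difference of 1.66 of the same sign. The brightest Meg3 probe had 0.28, the second 0.455 and the fourth -0.51.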

How the results depend on the processing

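No paired analysis was possible because each group is 1 array of pooled RNA and there is no replicate to leave out or to block on. The filters on dim probes cannot change a member's value, and the series' value table gave that of quantile normalization, so 4 alternatives bear on the members: normexp, quantile normalization, median centring and the mean of probes. H19 stayed past 2-fold under these 4, at 2.74 to 4.14 for PPE in sham and -3.59 to -2.54 for ORX under PPE. Of the 40 member differences 31 kept their sign under them, and the 9 that did not were at most 0.70 in size. The PPE difference of Dlk1 in ORX minus that in sham was 0.53 under normexp and 0.69 for the mean of probes. With 1.5-fold in place of 2-fold, 2 of 10 members passed for PPE in sham, 2 for PPE in ORX and 2 for ORX under PBS. Of all genes 1866 of 20546, 1209 of 20837 and 1947 of 20880 passed there, and nothing is read from the member counts. For ORX under PPE 1 member passed under normexp and 1 under the mean of probes, where Igf2 was at -0.78 and -0.87. The genes of the whole array past 2-fold numbered 352 for PPE in sham mice, 223 for PPE in ORX mice, 380 for ORX with PBS and 360 for ORX with PPE. In that order they numbered, under normexp, 67, 26, 95 and 94, with no filter 2017, 1752, 1921 and 1995, and at 1.5-fold 1866, 1209, 1947 and 1431. With only genes above background on all 4 arrays they numbered 217, 119, 249 and 244. Signals under 60, such as those of H19 outside sham/PPE and of Dlk1, have no spot error from repeated probes here, and normexp moved H19 for PPE in sham mice from 4.07 to 2.74.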
